A study of Sus scrofa with 2 samples.

Results

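The set described here comprises 1298 stretches of the pig genome that were read many times in a culture of embryonic germ cells (pEGC) and almost never in a culture of fetal fibroblasts (pFF), out of 75532 transcribed regions in all. A region is a run of reads in the pooled libraries in which no step from one read start to the following one exceeds 200 bases, with at least 20 reads. A region entered the set if it was wider than 150 and narrower than 5000 bases and had 50 or more pEGC reads and 3 or fewer pFF reads. The set was thus chosen by the read numbers of both libraries, so its levels and ratios are a description and no test is attached to them. Of the 1298 regions, 386 had no pFF read. The other 912 had 1 to 3 pFF reads, and all 1298 are called pEGC-restricted regions below. A missing pFF read does not show that transcription was absent in the fibroblasts. Some of the 386 lay less than 200 bases from a region with pFF reads.

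Per the labels, which give the same protocol for both samples, the cultures came from embryos of Danish Landrace sows inseminated by Yorkshire boars, taken between days 17 and 24 of gestation, whereas the title names mini pigs. The pEGC sample is labelled as primordial embryonic germ cells. Hindguts of the youngest embryos and the medial mesonephros with the forming genital ridge of the older ones were dissociated and plated on a feeder layer of inactivated STO mouse fibroblasts, in medium with LIF, SCF and bFGF. The pFF sample is labelled as embryonic fetal fibroblasts, but its protocol text repeats that of the germ cells word for word, so that neither the source tissue nor the culture of the fibroblasts is described separately. No treatment was applied, and each culture gave 1 library of 14324517 aligned reads, so there is no replicate and no p-value. The totals are the same to the read, and the labels do not say whether a library was cut to the size of the other, so the full depth behind a count of 0 is unknown. Fewer cells of a type and less RNA per cell cannot be told apart in such bulk samples, and any feeder RNA that happened to map to pig sequence is counted here as pig RNA.

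Primordial germ cells are the embryonic precursors of sperm and eggs. They migrate by way of the hindgut to the genital ridges and use genes that are silent in most somatic cells. In culture with growth factors they can form colonies of embryonic germ cells. Fibroblasts are the cells that make connective tissue. In mature poly(A) RNA the exons of a gene are joined, so reads aligned back to the genome appear as a row of separate covered stretches with introns between them. The files name no gene and their genome build is not given in the sources used here, so regions are identified by position in the deposited coordinates (first base counted as 1), and neither gene nor exon is assigned to any of them. Germ cell and fibroblast marker genes could not be looked up for the same reason.

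A few facts of the libraries bear on every value below. A block of chromosome 6 near the start of its sequence, which is left out here, took 11.5% of the reads in pEGC and 30.6% in pFF. Outside it pFF had 0.784 reads for each pEGC read, so the rule, which is set in reads, was applied at a lower depth in pFF there. Levels are given as RPM (read number divided by the library's total inside regions, times 1000000), where 3 reads are 0.232 RPM in pEGC and 0.219 RPM in pFF. Scaling by the reads outside the block would multiply each fold in favour of pEGC by 0.779. Intervals are exact 95% Clopper-Pearson intervals. They cover counting error only, since repeated reads of 1 position may be copies of 1 molecule, and they hold no information on the spread between cultures.

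The pEGC-restricted regions made up 1.72% of all regions outside the block, and 5.14% of the 25234 regions of the same width with at least 50 pEGC reads. Exchanging the libraries in the same rule gave 699 pFF-restricted regions, 0.925% of all regions and 3.89% of the 17972 with at least 50 pFF reads. With the minimum of the exchanged rule scaled to the smaller number of pFF reads outside the block (at least 40 pFF reads), 877 pFF-restricted regions were found. The maximum stayed at 3 pEGC reads. The pEGC-restricted regions together held 126541 pEGC reads and 1786 pFF reads, or 9801 RPM against 131 RPM. They covered 1852 kb and took 1.12% of the pEGC reads that lay in regions outside the block.

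**Figure D1:**
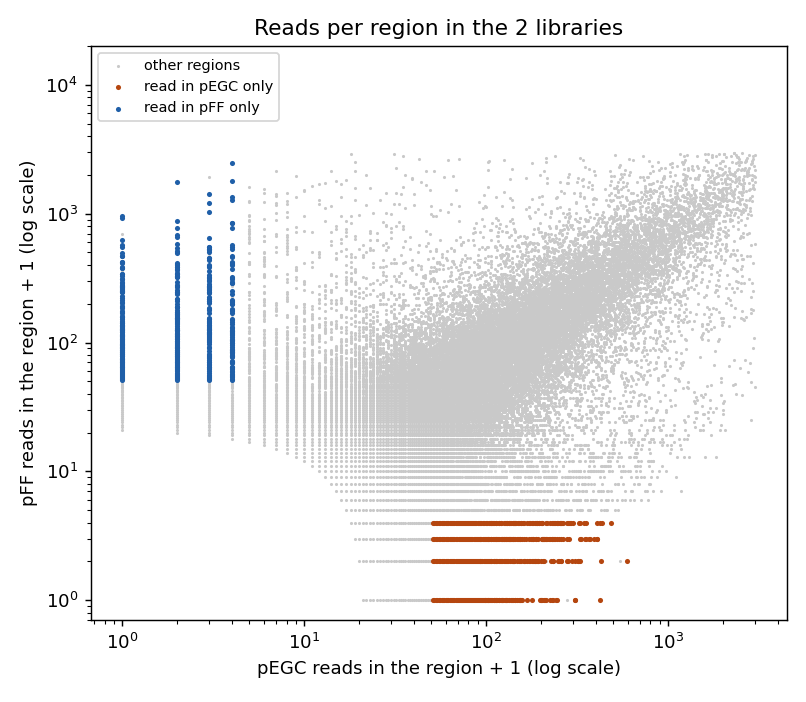
Reads of each region in the pEGC library (horizontal) and the pFF library (vertical), each plus 1, on log scales; regions with more than 3000 reads in a library are not drawn. The 1298 pEGC-restricted regions lie in the 4 lowest rows, from 50 to 590 pEGC reads, and the 699 pFF-restricted regions in the 4 columns at the left.

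Most of the pEGC-restricted regions were of low abundance. The median was 74 pEGC reads, the lowest was 50 and the highest 590. A total of 925 regions had 50 to 99 pEGC reads, 268 had from 100 to under 200 and 105 had 200 or more. Among the pFF-restricted regions the median was 95 pFF reads and the highest count 2464, and 150 of the 699 had 200 or more reads. The set read almost only in the pEGC culture was thus larger in number, and its regions held fewer reads each. The medians of distinct read positions (start and strand) were close, at 51 in the pEGC-restricted and 52 in the pFF-restricted regions. The other regions of that width range with at least 50 pEGC reads had a median of 111 pEGC reads.

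The number of pFF reads was spread over the values that the rule allows, with 386 regions at 0 reads, 316 at 1, 318 at 2 and 278 at 3. The median pEGC reads of these classes were 67, 77.5, 79 and 76.5. The regions without a pFF read did not hold more pEGC reads than the others. A count of 0 was set to a floor of 3 reads, and against that floor the median region without a pFF read was 23.7-fold higher in pEGC. The exact interval is wider than this floor, with a median lower limit of 18.7 over these regions.

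No gap in the data separated the regions from those just outside the rule. With 4 pFF reads in place of 3 there were 237 more regions, with 5 another 230 and with 6 another 208, at medians of 76, 85.5 and 76 pEGC reads. Just under the minimum of reads, 237 regions had 45 to 49 pEGC reads and 3 or fewer pFF reads, against 200 inside it with 50 to 54. The width limits left out 51 regions of 41 to 148 bases and 10 regions of 5059 to 9532 bases.

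The 10 regions with the most pEGC reads differed widely in shape. The leading one, on chromosome 3 from 86468837 to 86470911, had 590 pEGC reads and 1 pFF read, or 45.7 RPM against 0.0731 RPM (625-fold, 112 to 24721). Its reads were not spread over its 2075 bases, since 90.7% of them started within a single stretch of 200 bases near its end. The next, on chromosome 6 from 80987673 to 80990380, had 486 pEGC reads and 3 pFF reads (172-fold, 58.4 to 835). Here reads covered 83.2% of 2708 bases and the densest 200 bases held 19.3% of them. The former is thus a narrow peak with sparse flanks and the latter a broad stretch.

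Next in order, on chromosome X from 89166218 to 89166812, had 430 pEGC reads and 3 pFF reads (152-fold, 51.6 to 739), with 98.1% of its pEGC reads in 200 bases. The region on chromosome 1 from 267974664 to 267975046 had 428 pEGC reads and 1 pFF read (453-fold, 80.9 to 17945), in 2 covered stretches with a read-free part between them. A region on chromosome 4 from 100360742 to 100360967 had 423 pEGC reads and no pFF read. Against the floor of 3 pFF reads it was 149-fold higher in pEGC (lower limit of the interval 121). It was the densest of the regions with at least 50 distinct read positions, at 1872 pEGC reads per 1000 bases, and also the one with the most reads among those without a pFF read. All 3 were under 600 bases wide.

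The remaining 5 of the leading 10 were covered over most of their length, 3 of them over more than 80%. The region on chromosome 1 from 136950492 to 136951376 had 420 pEGC reads and 3 pFF reads (148-fold, 50.4 to 722) and was covered over 99.9% of its 885 bases. That on chromosome 14 from 113828294 to 113829225 had 406 and 3 reads (143-fold, 48.7 to 698) and was covered over 99.1%. That on chromosome 15 from 18170342 to 18171676 had 407 and 2 reads (216-fold, 59.3 to 1786) and was covered over 84.4%. The last pair of the leading 10 lay on chromosome 1 from 122650016 to 122651705, with 404 and 2 reads, and on chromosome 7 from 29224043 to 29225720, with 393 and 2 reads. In the chromosome 7 region 84.2% of the pEGC reads were on strand F and 18.8% at a single position, so its count rests on fewer distinct positions (122) than that of the chromosome 1 region (221).

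**Figure D2:**
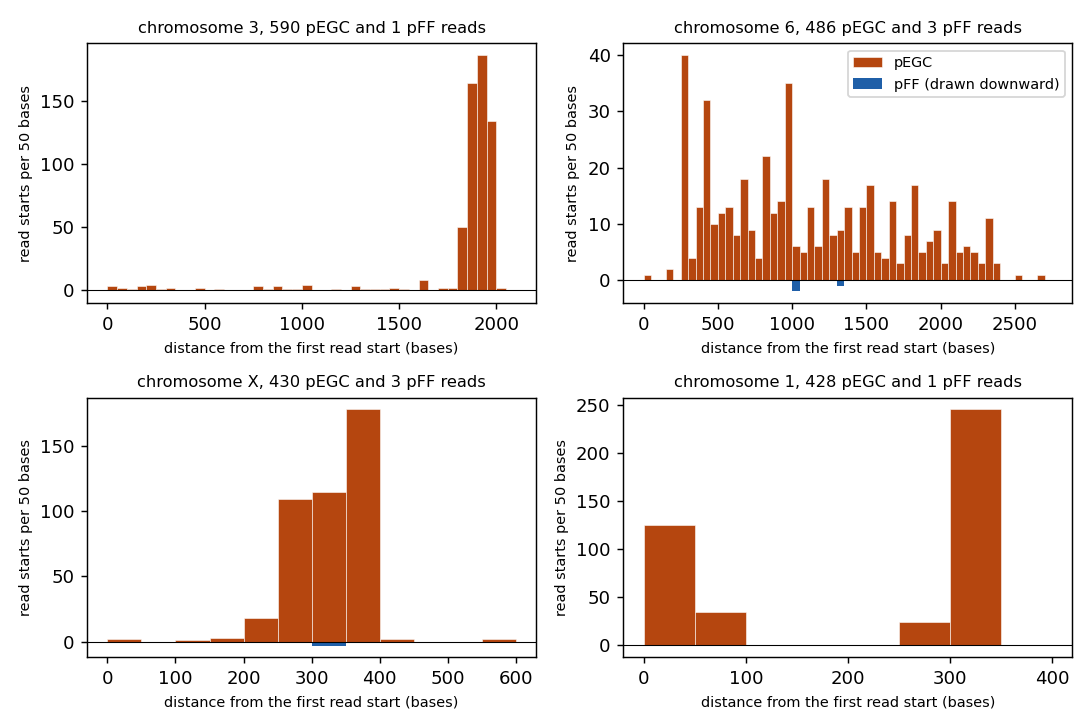
Read starts per 50 bases along the 4 pEGC-restricted regions with the most reads, against the distance from the first read start; pEGC reads are drawn upward and pFF reads downward. The regions on chromosomes 3 and X have most reads in 1 narrow peak, the one on chromosome 1 has a peak at each side of a read-free part, and the one on chromosome 6 is covered over most of its length.

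Other dense regions were short. On chromosome 1, the region from 267972622 to 267972781 lay close to the one at 267974664 and had 276 pEGC reads and 1 pFF read within 160 bases, or 1725 pEGC reads per 1000 bases. On chromosome 2 the region from 50126338 to 50126518 had 286 and 3 reads, and on chromosome 8 the region from 64048568 to 64048753 had 291 and 3 reads. A region on chromosome 13 from 94034819 to 94035116, with 371 pEGC reads and 2 pFF reads, lay 352 bases from a far more abundant region with 7573 pEGC reads and 93 pFF reads. The abundant neighbour was also read mainly in pEGC and was outside the set because of its 93 pFF reads.

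Among the regions without any pFF read, the next after chromosome 4 were 10283525 to 10285293 on chromosome 6, with 308 pEGC reads, and 53016411 to 53019136 on chromosome 7, with 305. Against the floor of 3 pFF reads they were 109-fold and 108-fold higher in pEGC (lower limits of the intervals 87.9 and 87.0). A region on chromosome 2 from 67832411 to 67833064 had 245 pEGC reads and was covered by reads over its whole length of 654 bases. The last of these, on chromosome 1 from 122693432 to 122694949, had 240 pEGC reads, of which 32.1% were at 1 position and 13.8% on strand F. Its 66 distinct positions were fewer than those of the other 4. The chromosome 4 region came close, with 75 distinct positions for its 423 pEGC reads and 15.4% of them at 1 position.

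The pEGC-restricted regions were wider than the pFF-restricted ones, with medians of 1317 and 678 bases. Of the 1298 regions, 252 (19.4%) were under 500 bases and 320 (24.7%) were 2000 bases or more, against 40.8% and 14.0% of the pFF-restricted regions. The difference was also there at matched read numbers: with 50 to 74 reads the median widths were 1212 and 560 bases, and from 100 to under 200 reads 1410 and 841 bases. Against the other regions of that width range in the pEGC library the order changed with read number. Those with 50 to 74 pEGC reads had a median of 1021 bases, and those from 100 to under 200 reads 1580.5 bases. With 75 to 99 reads the medians were 1438 bases in the set and 1192 in the others. The set was thus wider below 100 reads, where 925 of its regions lay, and narrower from 100 reads. Over all with at least 50 pEGC reads the others had a median of 1480 bases, but they also held more reads each. Narrow regions were denser, with a median of 269.5 pEGC reads per 1000 bases under 500 bases and 34.4 at 2000 bases or more, though the median read numbers were close (74.5 and 89). The pEGC-restricted and pFF-restricted regions were read in different libraries, and no width of other regions of the pFF library is set beside them. A difference between the whole libraries therefore cannot be told apart from one of the restricted regions. With 1 library per culture the difference in width has no test.

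Within the regions reads were uneven. The median pEGC-restricted region was covered by pEGC reads over 60.9% of its bases in 12.5 separate stretches. Among the 472 regions from 1000 to under 2000 bases, the densest 200 bases held a median of 35.3% of the reads, where an even spread would give 13.4%, and in 104 of them (22.0%) they held 50% or more. For the other 6801 regions of this width with at least 50 pEGC reads the median was 44.7%, and 41.0% of them had 50% or more. These shares count pEGC reads only, while width is that of the pooled reads. Reads of pFF can widen the other regions but hardly those of the set, so the rule itself may add to this difference. Among the 320 regions of 2000 bases or more, 13 had 50% or more of their reads in 200 bases. Profiles like that of the leading region on chromosome 3 were therefore the exception among wide regions.

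Repeated positions took part of the reads. Over the set, 63.5% of the pEGC reads had a distinct combination of start and strand, against 42.1% of the pFF reads in the pFF-restricted regions. At 50 to 74 reads the medians per region were 74% and 63.4%, and at 200 to 600 reads 54.4% and 33.4%. The other regions with 50 to 74 pEGC reads had a median of 70.4%, so the set was closer to the rest of its own library than to the pFF-restricted regions. In the median region the most frequent position held 6.06% of the pEGC reads, and in 33 regions it held more than 20%. The highest share, 52.2%, was found on chromosome 5 from 94404079 to 94404313, where 69 pEGC reads had 25 distinct positions. Counting each position only 1 time left 692 of the 1298 regions with 50 or more pEGC positions.

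The strands were read about equally, with 50.8% of the pEGC reads on strand F (50.5 to 51.0), and the protocol mentions nothing that would preserve strand. In 64 regions (4.93%) the share of strand F was under 20% or over 80%, against 5.84% of the other regions with at least 50 pEGC reads and 12.9% of the pFF-restricted regions. These 64 regions were short, with a median width of 412.5 bases. The spacing of opposite strands, which follows the length of the cDNA fragments, peaked at 140 to 149 bases in the pEGC-restricted regions and in the whole pEGC library. In the pFF-restricted regions and the whole pFF library the peak was at 170 to 179 bases. At the peak, 4.74% of the F positions of the pEGC-restricted regions had an R start, 2.80 times the share at about 300 bases. The spacing of each set was computed from reads of its own library, so a peak shared with that library is no result about the regions.

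**Figure D3:**
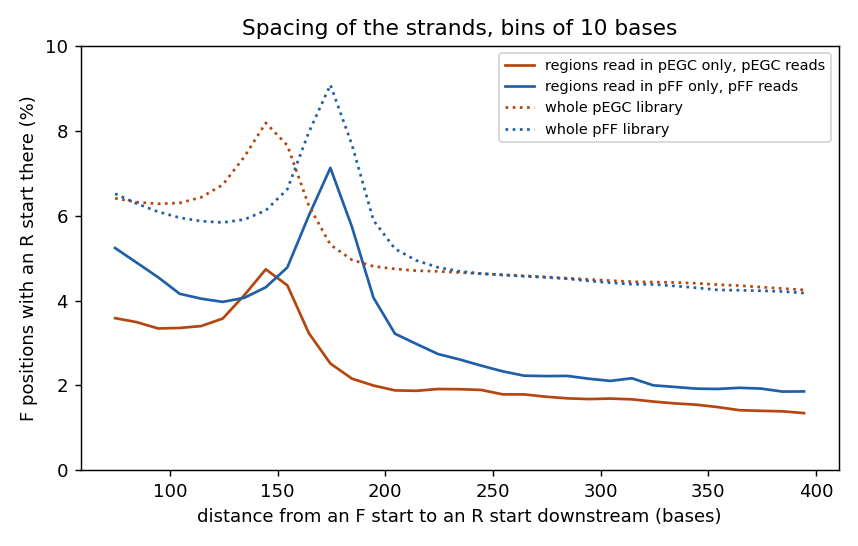
Share of distinct F starts with an R start at a given distance downstream, in bins of 10 bases, for the restricted regions (solid) and the whole libraries outside the chromosome 6 block (dotted). The pEGC curves peak at 140 to 149 bases and the pFF curves at 170 to 179 bases.

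Position along the genome was not used to choose the regions. Of the 1298, 858 (66.1%) had another pEGC-restricted region within 20 kb, and the regions formed 689 groups at this distance. There were 440 single regions, 205 groups of 2 to 4 and 44 groups of 5 or more, which together held 326 regions. Such grouping was not particular to the set. Of the other 23936 regions with at least 50 pEGC reads, a far larger number, 86.0% had another of their kind within 20 kb, and of the 699 pFF-restricted regions 57.1% did. The 249 groups of 2 or more had a median span of 10.7 kb and the longest span was 112 kb.

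The largest group lay on chromosome 1 from 217047446 to 217159037, where 20 pEGC-restricted regions with 2113 pEGC reads and 27 pFF reads stood over 112 kb. Their widths ran from 191 to 3334 bases and their pEGC reads from 52 to 251. Another 12 regions lay between them without meeting the rule, with 1782 pEGC reads and 60 pFF reads, or 96.7% pEGC reads. The 7 regions of the set that were 1500 bases or wider all lay at 73.3 kb or more from its start, and the regions of the set before them were narrower. The most abundant region of this stretch, with 809 pEGC reads, was not in the set because it had 24 pFF reads.

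A second group on chromosome 1, from 231519371 to 231607036, held 14 regions with 1005 pEGC reads and 14 pFF reads, 7 of them without a pFF read. It was made of short stretches, with a median width of 556.5 bases. On chromosome 5 from 59038518 to 59085303, 12 regions had 1006 and 14 reads and a median width of 519.5 bases. This group stood alone, since no other region lay within 20 kb of its ends. The group on chromosome 7 from 52915678 to 52973636 also held 12 regions, with 1073 and 8 reads, and none of them was under 1380 bases wide. Groups of equal number thus ranged from rows of short stretches to rows of wide ones.

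On chromosome 15 from 63922195 to 63983760, 11 regions had 1332 pEGC reads and 13 pFF reads, and the 10 other regions between them had 2116 and 49. The group on chromosome 1 from 122646542 to 122673290 had only 8 regions and 1324 pEGC reads against 11 pFF reads, with 1 region of the leading 10 among them. In each of these 6 groups the regions in between held over 96% pEGC reads. Among all 189 groups of 2 or more with other regions in between, the median pEGC share of those regions' reads was 97.6% and the lowest 73.8%.

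**Figure D4:**
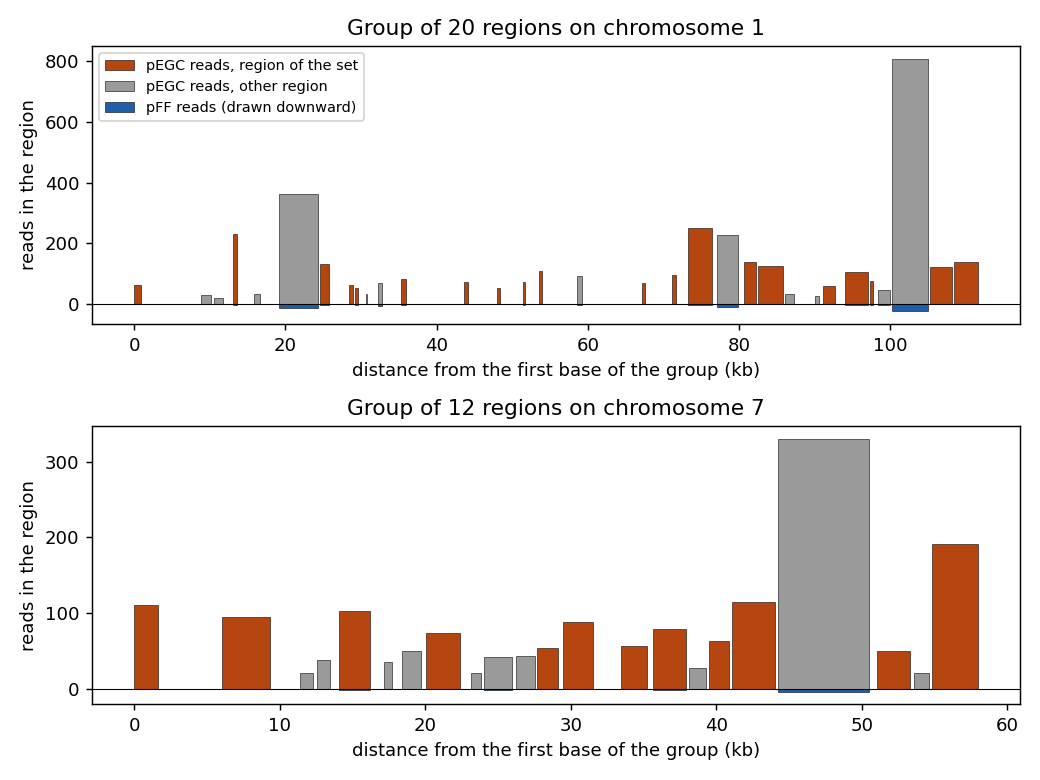
Reads of each region in the groups of 20 regions on chromosome 1 and 12 regions on chromosome 7, against the distance from the first base of the group; bar width is the width of the region, pEGC reads are drawn upward and pFF reads downward. The regions between those of the set are also read mainly in pEGC, and those with the most reads fail the limit of 3 pFF reads (24 and 4 pFF reads). The one on chromosome 7, at 6257 bases, is also too wide for the rule.

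The neighbourhood as a whole leaned the same way. Within 20 kb of the pEGC-restricted regions lay 4190 other regions, with 999061 pEGC reads and 138205 pFF reads, a pEGC share of 87.8%. Over all regions outside the block the share was 54.8%, and around the pFF-restricted regions it was 13.9%. By region, the median share was 93.9% (quartiles 83.1% and 98.2%), and 3315 of the 4190 (79.1%) had a share of 80% or more, where 21.9% of all regions did. A share of 20% or less was found in 26 (0.621%), against 6.01% of all regions. Of the 4190 neighbours, 1660 had 3 or fewer pFF reads and fewer than 50 pEGC reads, and 2487 had more than 3 pFF reads. The latter still had a median pEGC share of 86.3%.

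The excess fell with distance. Regions less than 2 kb from a pEGC-restricted region had a median pEGC share of 96.6%, those at 5 to 10 kb 92.5%, at 20 to 50 kb 74.3% and at 50 to 100 kb 66.7%, close to the 62.6% of all regions. Around the pFF-restricted regions the median rose from 1.09% under 2 kb to 51.9% at 20 to 50 kb and 57.9% at 50 to 100 kb. Reads that belong to no region showed the same lean. Within 5 kb of the pEGC-restricted regions there were 29593 such reads in pEGC and 1656 in pFF, a pEGC share of 94.7% (94.4 to 94.9), against 68.5% of all reads outside regions and 9.18% around the pFF-restricted regions.

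**Figure D5:**
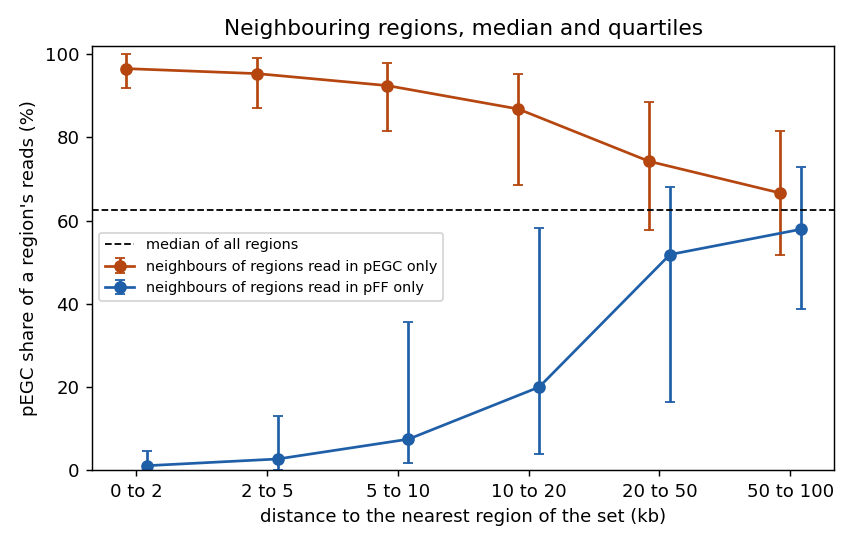
pEGC share of the reads of neighbouring regions, against their distance to the nearest region of the set; points are medians over regions and bars the quartiles. The dashed line is the median of all regions outside the block, 62.6%, which both curves approach beyond 50 kb.

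Many of the regions were parts of longer stretches of reads. For 714 of the 1298 (55.0%) the nearest region of any kind was under 500 bases away, as it was for 54% of the other regions with at least 50 pEGC reads and 33.6% of the pFF-restricted regions. When reads were joined over up to 500 bases, only 110 regions were unchanged and 271 were joined into a longer region that still met the rule. Another 826 became part of a region with more than 3 pFF reads, and 91 of a region of 5000 bases or more with few pFF reads. The joined region that held them had a median width of 7733 bases. For these 826, 3 or fewer pFF reads held for the stretch as joined over 200 bases and not for the longer stretch around it. The longer stretches were still read mainly in pEGC, with a median pEGC share of 97.4%, counted for each of the 826, and a share of 80% or more in 780.

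Some regions stood in a neighbourhood that was itself almost without pFF reads. For 153 regions the other regions within 20 kb held 3 or fewer pFF reads in all, and 82 had no other region outside the set within that distance. The median region with neighbours had 6 of them, with 610 pEGC reads and 29 pFF reads in sum. A total of 56 regions (4.31%) were more than 20 kb from any region, with 50 to 326 pEGC reads, a median of 79, and 22 of them without a pFF read. Of the other regions with at least 50 pEGC reads 3.41% were as isolated, and of the pFF-restricted regions 14.0%.

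The isolated region with the most reads, chosen after its values were seen, lay on chromosome 17 from 22052115 to 22052637 and had 326 pEGC reads and 2 pFF reads, 28276 bases from the nearest region. Next came chromosome 9 from 128639717 to 128640338, with 231 pEGC reads and no pFF read. Both were covered over more than 95% of their length. In another, on chromosome 8 from 75230024 to 75230531, with 185 pEGC reads and 1 pFF read, 94.6% of the pEGC reads were on strand F and 61 positions were distinct.

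Few regions went against their surroundings. In 17 of the 1216 with neighbours the neighbours in sum had a pEGC share under 50%, and these 17 had 51 to 190 pEGC reads. The only one with a share of 20% or less lay on chromosome 12 from 38305206 to 38306273, with 58 pEGC reads and no pFF read. Its single neighbour, 17035 bases away, had no pEGC read and 24 pFF reads. Among the leading 10, the region on chromosome 14 at 113828294 had 406 pEGC reads and 3 pFF reads, while the nearest region, 1347 bases away, had 135 and 125. It was not among the 17, since its 10 neighbours in sum had 883 pEGC reads and 249 pFF reads, a pEGC share of 78.0%. These regions were also chosen after their values were seen.

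The regions were unevenly spread over the chromosomes. Set against the regions of the same width with at least 50 pEGC reads, their share ran from 2.67% on chromosome 4 (41 of 1537) to 8.74% on chromosome 7 (156 of 1784). Chromosomes 8 (7.82%, 81 of 1036), 1 (7.23%, 204 of 2821) and 18 (7.19%, 40 of 556) followed, and the X chromosome had 3.32% (28 of 844). Regions of a group are not independent, and single stretches weighed on these shares. On chromosome 7, the window from 52 to 53 Mb alone held 40 of the 156 regions, and 40 of its 47 regions with at least 50 pEGC reads were in the set. On chromosome 1 the windows from 122 to 123 Mb and from 217 to 218 Mb held 24 each, of 28 and 37. Over the genome, 450 of 1812 windows of 1 Mb with any region of 50 or more pEGC reads held a pEGC-restricted region.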

How the data were processed

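The deposited files hold positions, not counts: per the file contents, the authors' files list 1 aligned read of 34 bases per line with chromosome, start, end and strand, no header and repeated lines kept, so the deposited unit is a read position. Per the labels' protocols, RNA was poly(A) selected in 2 rounds, fragmented by hydrolysis and copied from random hexamers. The sources used here do not give the aligner, the genome build or the treatment of reads with several matches. Of the reads, 59.7% lay inside Sscrofa11.1 genes of the RefSeq table, 56.6% after all were moved by 2 Mb, and 55.2% of positions lie in such genes, so that table was not used to name regions.

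Regions were computed with Python 3.11.15 and numpy 2.4.6, with the join of 200 bases and minimum of 20 reads given above, and the joining was tested on simulated data. The simulated regions had no gap over the join distance and lay far apart. That test therefore checks the code and not how sparse real stretches are divided. Named are the 10 regions with the most pEGC reads, the 5 densest with 50 or more distinct positions, the 5 without pFF reads with the most pEGC reads, the 5 groups with most regions and the 3 with most reads; others are marked as chosen after their values were seen. The rule of the set, its lists and alternatives were chosen with earlier results of these data known. No count test was run, since each culture had 1 library.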

Additional observations from a re-analysis of the deposited data

How the results depend on the processing

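The number of pEGC-restricted regions, 1298, follows the limits chosen. It was 1374 with reads joined over 100 bases and 1359 with any width, but 662 with reads joined over 500 bases, 803 with each position counted 1 time, 386 and 702 with 0 or at most 1 pFF read, 1973 with at most 6, 2992 with at least 30 pEGC reads and 373 with at least 100. Of the 1298 regions, 697 overlapped a region of the set made at 100 bases and 381 one made at 500 bases. Joining over 100 bases split 1057 regions and left 241 unchanged. The number of pFF-restricted regions, 699, became 408 with each position counted 1 time, 277 without a pEGC read, 1160 with at least 30 reads and 331 with at least 100. It stayed within 1.5 times in the other 6 alternatives. Every setting applied to both sets gave more pEGC-restricted than pFF-restricted regions. These settings used equal read limits in both libraries, despite the lower depth of pFF outside the block. The order also depends on the minimum of reads, since 105 pEGC-restricted and 150 pFF-restricted regions had 200 or more reads. Without a pFF read there were 172 regions in place of 386 when positions were counted 1 time, an alternative chosen after seeing the data.

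The share with another region of the set within reach, 66.1% at 20 kb, was 59.5% at 10 kb, 72.9% at 50 kb and 60.8% with each position counted 1 time. The pEGC share of the neighbours' reads, 87.8%, was 89.7% within 10 kb, 80.4% within 50 kb, 93.9% as a median over regions and 87.4% with each position counted 1 time. It was 88.3% over the 908 neighbours with 200 or more pooled reads, also chosen after seeing the data. For reads outside regions the share of 94.7% was 95.5% within 2 kb and 93.6% within 10 kb. No paired analysis was possible because each culture had 1 library. With 50 reads or fewer per library small differences are not detectable, and the spread between cultures is unknown.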
